A study of Mus musculus with 6 samples.

Results

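The 10 genes described here encode the alpha and beta tubulins measured in mouse microglia, the macrophages that live in brain tissue. They are Tuba1a, Tuba1b, Tuba1c and Tuba4a on the alpha side, and Tubb2a, Tubb2b, Tubb3, Tubb4b, Tubb5 and Tubb6 on the beta side. They were matched by gene symbol among 26096 genes of the deposited table, and all 10 passed the filter on low values. Wild-type (WT) microglia were given medium conditioned by bone marrow-derived macrophages (BMDMs). In 3 samples (FeM CM) the macrophages were ferroptotic, that is, dying by iron-dependent lipid peroxidation, and in 3 samples (C CM) they were normal. The dose of medium, the time of exposure and the source and age of the cells remain not given in the sources used here. Read totals over genes, as recovered from the deposited values, were 39624311 to 41953603 per FeM CM library and 43419446 to 50557794 per C CM library. No label states that the samples were separate cultures, so each p-value reflects the spread among these 6 samples only, and that spread may be technical. Of the markers of the labelled cell type, Csf1r and Trem2 were detected in all libraries, while P2ry12 (3 reads), Tmem119 (21 reads) and C1qa (5 reads over all 6 libraries) were nearly absent.

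An alpha and a beta tubulin pair into the dimer from which microtubules are built. Isotypes of each are encoded by separate genes and differ mostly in their acidic tails at the end of the protein, which are modified by enzymes and read by motors and other microtubule proteins. Microtubules carry cargo, shape processes and, in dividing cells, form the spindle. Tubulin mRNA is also controlled by the amount of free dimer: the factor TTC5 binds the first residues of newly made tubulin on the ribosome, and the mRNA is then deadenylated and degraded.

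The start of the coding sequence, which encodes the residues read by TTC5, is shown for an abundant alpha isotype, the leading beta isotype and 2 scarcer beta isotypes, with the first 4 codons in capitals. The 30 bases come from the principal transcripts of GENCODE M21, which were also the source of the other coding sequences.
Tuba1b: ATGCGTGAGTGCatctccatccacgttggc
Tubb5: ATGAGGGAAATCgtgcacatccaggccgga
Tubb2a: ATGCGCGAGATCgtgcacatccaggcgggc
Tubb3: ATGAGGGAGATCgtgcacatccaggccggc
The isotypes differ at the end of the coding sequence, where the 3 Tuba1 genes encode a final tyrosine and Tuba4a does not. Loss and return of this tyrosine is a main modification of alpha tails. The last 30 bases before the stop are shown for 3 alpha isotypes, with the last codon in capitals.
Tuba1b: ggcgagggggaggaagaaggagaggagTAC
Tuba1c: gctgaaggagacgatgagggtgaggaaTAT
Tuba4a: tcctatgaggacgaggatgagggagaaGAG
In the last 20 codons, 10 to 12 encode an acidic residue in each of the 10 isotypes.

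With ferroptotic macrophage medium the abundant isotypes were lower and 3 scarce beta isotypes were higher. Tubb5, Tubb4b, Tuba1b, Tubb6, Tuba1c and Tuba4a fell, 6 of 10 members (limma adjusted p under 0.05 over all genes), where 22.8% of the 15597 genes tested were called lower and 42.5% were called in either direction. Tubb2a, Tubb2b and Tubb3 rose, 3 of 10, where 19.7% of genes were called higher. Tubb3 passed the filter on low values only through the FeM CM libraries, so its call adds little to this count or to the 2-fold count below. Tuba1a did not pass the test. Among the called members, Tubb5 fell by at least 2-fold, as did 3.70% of genes tested, and Tubb2a, Tubb2b and Tubb3 rose by at least 2-fold, as did 3.95%. The median log2 fold change of the 10 was -0.66, against -0.01 over all genes tested. The values below are normalized counts (reads divided by a size factor per library), and fold changes are on the log2(normalized count + 1) scale, which understates the change of low genes. In bulk RNA, fewer cells of a type and less RNA per cell cannot be told apart.

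**Figure D1:**
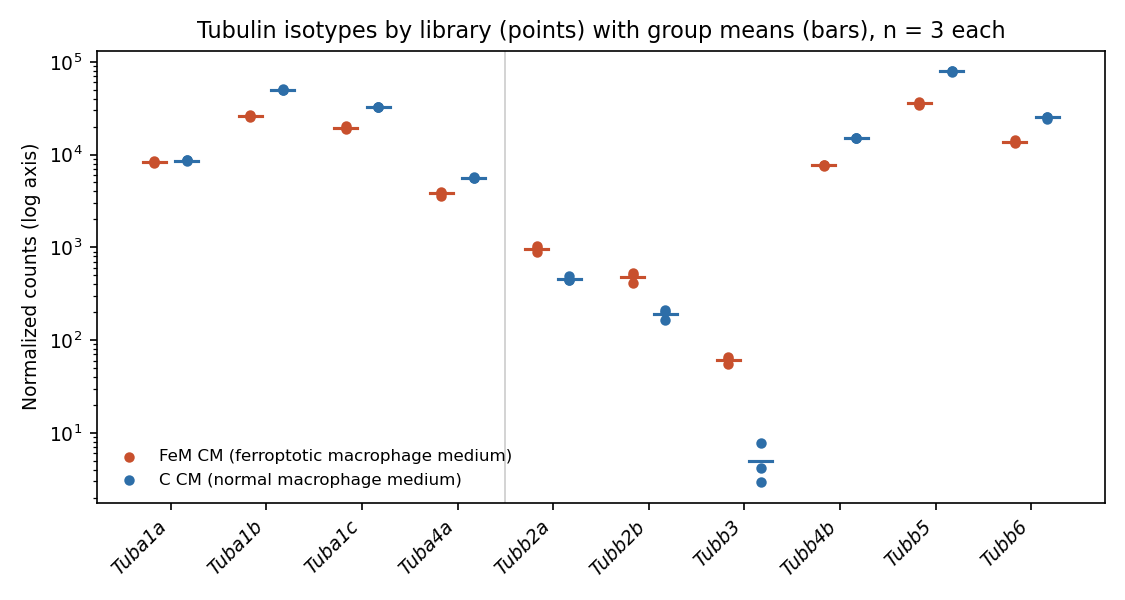
Normalized counts on a log axis for the 10 isotypes, alpha genes left of the line and beta genes right of it, with FeM CM left of C CM for each gene; points are libraries and bars are means of 3. FeM CM libraries lie below C CM libraries for 6 isotypes, above them for Tubb2a, Tubb2b and Tubb3, and overlap them for Tuba1a.

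Tubb5, the class I beta tubulin made in most cell types, had 37301, 35439 and 33996 normalized counts in FeM CM libraries, against 78323, 78984 and 78786 in C CM libraries. All FeM CM libraries were lower, and Tubb5 changed by -1.15 on the log2 scale (SE 0.03; limma adjusted p = 6.23e-08). Tubb4b, a class IV isotype also used in cilia, had 7692, 7449 and 7738 in FeM CM libraries and 15164, 14986 and 15217 in C CM libraries. Its fall was just short of 2-fold on the log2 scale, at -0.99 (SE 0.03; limma adjusted p = 6.69e-08). Tubb6, the class V beta tubulin, had 14426, 13281 and 13755 in FeM CM libraries and 24222, 25634 and 25680.1 in C CM libraries. It fell by 0.87 on the log2 scale (SE 0.04; limma adjusted p = 5.11e-07). None of the 3 had overlapping groups, as was so in this direction for 28.2% of all genes tested.

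Among alpha isotypes Tuba1b, the leading one here, had 26898, 25429.8 and 25729 normalized counts in FeM CM libraries, against 49255, 49663 and 50786 in C CM libraries. The change was -0.94 on the log2 scale (SE 0.03; limma adjusted p = 7.4e-08). Tuba1c, whose product is close to that of Tuba1b, had 20468, 19092 and 18767 in FeM CM libraries and 32163, 32619 and 32866 in C CM libraries (log2 fold change -0.74, SE 0.04; limma adjusted p = 7.27e-07). The fall of Tuba4a, the isotype with no encoded final tyrosine, was the smallest of the 6. It had 3898, 3596 and 3924 in FeM CM libraries, against 5629, 5551 and 5746 in C CM libraries (log2 fold change -0.57, SE 0.04; limma adjusted p = 1.42e-05). Tuba1a, the alpha isotype best known from neurons, did not pass the test. It had 8538, 8219 and 8140.4 in FeM CM libraries and 8637, 8640.5 and 8523 in C CM libraries, and the groups overlapped (log2 fold change -0.05, SE 0.03; limma adjusted p = 0.245).

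The rises were in the class II and class III beta tubulins. Tubb2a had 974, 1027 and 896 normalized counts in FeM CM libraries, against 443, 491 and 448 in C CM libraries (log2 fold change 1.07, SE 0.08; limma adjusted p = 1.45e-05). Its close copy Tubb2b had 501, 532 and 415 in FeM CM libraries, against 163, 213 and 202 in C CM libraries (log2 fold change 1.32, SE 0.14; limma adjusted p = 9.65e-05). Both class II genes are abundant in brain, and every FeM CM library was above every C CM library, as for 25.6% of all genes tested.

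Tubb3, the class III isotype used as a marker of neurons, had the largest change of the 10 and the lowest level. It had 55.3, 66.5 and 62.0 normalized counts in FeM CM libraries, against 2.94, 4.21 and 7.83 in C CM libraries. These rest on 52, 65 and 56 reads in FeM CM libraries and on 3, 5 and 8 reads in C CM libraries. The log2 fold change was 3.46 (SE 0.40; limma adjusted p = 0.000166), and 34 of the genes tested, Tubb3 included, rose by as much or more. The ratio of FeM CM to C CM reads, scaled by size factors, was 12.4, with an exact 95% interval of 7.41 to 22.2 that covers counting error only. Tubb3 passed the filter only through the FeM CM libraries, so among tested genes it had to differ. With a pseudocount of 10 in place of 1 its log2 fold change was 2.26.

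**Figure D2:**
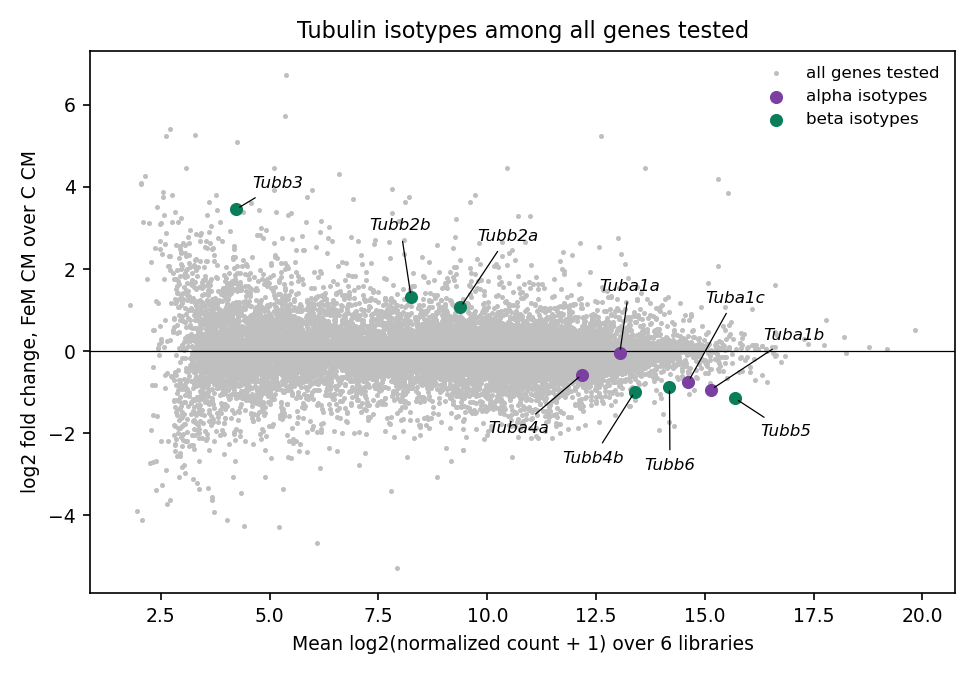
Mean log2(normalized count + 1) over 6 libraries against the log2 fold change of FeM CM over C CM, with the 15597 genes tested in grey, alpha isotypes in purple and beta isotypes in green. The abundant isotypes from Tuba4a to Tubb5 lie below 0, with Tuba1a close to it at -0.05, and Tubb2a, Tubb2b and Tubb3 lie above it.

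Levels were compared between genes per kilobase of annotated exon. In FeM CM libraries the order was Tuba1b (13877 ± 414 normalized counts per kilobase), Tubb5 (10694 ± 498), Tuba1c (8501 ± 395), Tubb6 (5671 ± 236), Tuba1a (4603 ± 117), Tubb4b (3653 ± 74.5), Tuba4a (1028 ± 49.4), Tubb2a (599.9 ± 41.0), Tubb2b (210.4 ± 26.3) and Tubb3 (32.8 ± 3.02; SD, n = 3). In C CM libraries Tuba1b (26614 ± 423) and Tubb5 (23654 ± 102) again led. Tubb4b (7243 ± 58.0) stood above Tuba1a (4770 ± 37.1) there, the reverse of their order in FeM CM libraries. No neighbours in either order overlapped between libraries with these lengths, but the order depends on them. With principal transcripts as lengths (1598 bases for Tubb4b, against 2088 of exon), mean Tubb4b stood above mean Tuba1a in both groups. Tubb5 then stood above Tuba1b in C CM libraries. The authors' deposited table gives Tubb5 230.9, 219.7 and 207 FPKM in FeM CM libraries, against 491, 494 and 489 FPKM in C CM libraries. For Tubb3 the authors' deposited table gives 0.607, 0.729 and 0.669 FPKM in FeM CM libraries, against 0.0241, 0.0413 and 0.0794 FPKM in C CM libraries.

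Summed per kilobase, both pools were smaller with ferroptotic medium. The alpha pool was 28009 ± 931 in FeM CM libraries and 47141 ± 553 in C CM libraries, a ratio of 0.594, and the beta pool was 20861 ± 709 in FeM CM libraries and 41601 ± 442 in C CM libraries (SD, n = 3 each), a ratio of 0.501. The alpha pool was 1.34 ± 0.00928 times the beta pool in FeM CM libraries and 1.13 ± 0.00793 times in C CM libraries. Which pool was larger depends on the lengths used. With no length correction the alpha pool was the smaller in both groups. With principal transcripts as lengths it was the larger in FeM CM libraries only. These sums over members are given without a test.

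The makeup of each pool shifted in part. Tuba1a held 16.4% ± 0.167 of the alpha pool in FeM CM libraries and 10.1% ± 0.193 in C CM libraries, and Tuba1b held 49.5% ± 0.303 in FeM CM libraries and 56.5% ± 0.248 in C CM libraries (SD, n = 3 each). The share of Tuba1c overlapped between the groups (30.3% ± 0.473 in FeM CM libraries and 30.2% ± 0.113 in C CM libraries). In the beta pool Tubb5 held 51.3% ± 0.876 in FeM CM libraries and 56.9% ± 0.385 in C CM libraries. Tubb6 held 27.2% ± 0.641 in FeM CM libraries and 24.8% ± 0.557 in C CM libraries, and the share of Tubb4b overlapped (17.5% ± 0.63 in FeM CM libraries and 17.4% ± 0.26 in C CM libraries). Tubb2a, Tubb2b and Tubb3 together held 4.04% ± 0.32 of the beta pool in FeM CM libraries, against 0.896% ± 0.0562 in C CM libraries, so they stayed a small part of it.

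**Figure D3:**
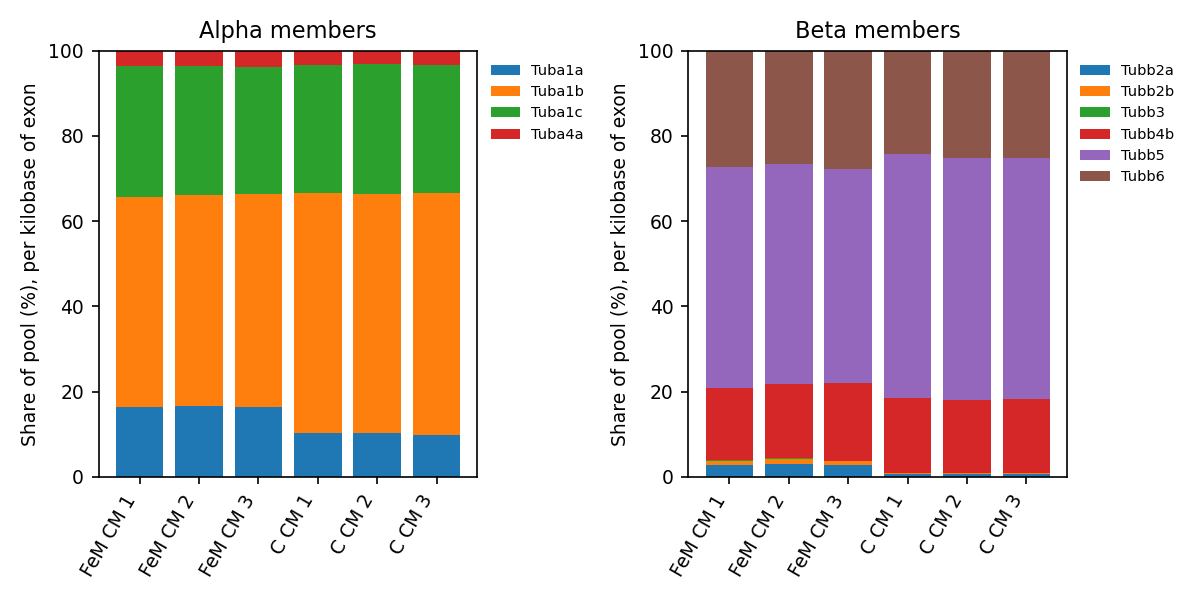
Share of each isotype, in percent of the summed normalized counts per kilobase of exon, in the alpha pool (left panel) and the beta pool (right panel) of each library. Tuba1a takes about 16.4% of the alpha pool in FeM CM libraries and 10.1% in C CM libraries, and the thin Tubb2a, Tubb2b and Tubb3 bands at the foot of the beta bars are wider in FeM CM libraries.

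Several of these genes are near-identical copies, so the split of reads between them is uncertain, and the counting of reads with several matches was not given in the sources used here. Coding sequences of Tuba1a and Tuba1b were 98.3% identical, Tuba1b and Tuba1c 97.9%, and Tubb2a and Tubb2b 96.5%, against 80.2% to 85.9% for the other pairs of beta isotypes. Of all 75-base windows of the principal transcript, 71.9% in Tuba1b, 68.2% in Tuba1a, 56.7% in Tuba1c, 43.2% in Tubb2a, 37.8% in Tubb4b and 32.2% in Tubb2b were found in a transcript of another gene. In Tubb5, Tubb6, Tubb3 and Tuba4a no window was shared. The window length is a choice made here, since the read length was not found in the labels. Summed over the copies, Tuba1a, Tuba1b and Tuba1c had 53761 ± 1856 normalized counts in FeM CM libraries and 91051 ± 1066 in C CM libraries, and Tubb2a and Tubb2b had 1449 ± 126 in FeM CM libraries and 653 ± 49.4 in C CM libraries (SD, n = 3 each). The groups did not overlap for either sum.

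Annotated pseudogenes shared windows with these transcripts in 13 cases. Of the 10 pseudogenes tested, 9 fell and 0 rose (median -0.98 on the log2 scale), where 22.8% of all genes tested were called lower, and Gm15599 (-1.04; limma adjusted p = 0.0514) did not pass. Gm14150, which holds 39.8% of the windows of Tuba1b, had 3587 ± 634 normalized counts in FeM CM libraries and 6944 ± 324 in C CM libraries, and Tubb4b-ps1, with 33.7% of those of Tubb4b, had 469 ± 26.3 in FeM CM libraries and 926 ± 83.2 in C CM libraries. Whether such reads come from the pseudogenes or from the parent mRNAs was not tested. On the same strand, the gene Gm49450 shares 473 exon bases with Tuba1a and 426 with Tuba1b. It had 13.1 ± 0.785 normalized counts in FeM CM libraries and 13.0 ± 12.3 in C CM libraries (limma adjusted p = 0.569). Tuba4a shares 1379 exon bases with Stk16 on the other strand, and any use of strand in counting was not given in the sources used here. Stk16, a kinase gene, had 1171 ± 88.8 normalized counts in FeM CM libraries and 1204 ± 82.2 in C CM libraries (limma adjusted p = 0.721).

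Promoters of 8 members were at hand from RefSeq (build GRCm38.p6), and 4 are shown for isotypes that fell or rose. Each is the 250 bases upstream of the start, 5′ to 3′ on the gene's strand, with CCAAT or its reverse complement ATTGG in capitals. CCAAT is bound by NF-Y and is common in promoters of cell cycle genes.
Tubb4b, chr2:25224703-25224952, - strand: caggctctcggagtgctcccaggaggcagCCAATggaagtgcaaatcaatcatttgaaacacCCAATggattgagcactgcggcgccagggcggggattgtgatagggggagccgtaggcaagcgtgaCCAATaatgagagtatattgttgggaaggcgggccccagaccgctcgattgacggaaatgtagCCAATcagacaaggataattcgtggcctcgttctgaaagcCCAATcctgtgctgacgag
Tubb5, chr17:35838302-35838551, - strand: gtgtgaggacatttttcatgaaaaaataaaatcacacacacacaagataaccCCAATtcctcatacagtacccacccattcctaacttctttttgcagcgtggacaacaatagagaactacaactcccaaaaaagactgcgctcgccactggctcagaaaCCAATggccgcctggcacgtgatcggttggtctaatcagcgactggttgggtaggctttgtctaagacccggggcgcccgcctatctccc
Tubb2a, chr13:34078009-34078258, - strand: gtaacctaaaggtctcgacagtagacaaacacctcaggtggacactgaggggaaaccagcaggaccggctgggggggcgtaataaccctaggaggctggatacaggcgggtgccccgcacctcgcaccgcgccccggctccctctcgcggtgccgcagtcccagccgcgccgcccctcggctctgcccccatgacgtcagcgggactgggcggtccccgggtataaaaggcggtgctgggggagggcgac
Tubb3, chr8:123411303-123411552, + strand: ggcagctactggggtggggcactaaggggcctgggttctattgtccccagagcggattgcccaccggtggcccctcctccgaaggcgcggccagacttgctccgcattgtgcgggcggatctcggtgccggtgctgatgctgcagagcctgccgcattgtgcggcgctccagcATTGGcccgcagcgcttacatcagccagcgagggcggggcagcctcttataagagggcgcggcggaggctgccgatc
Tubb4b held 5 such matches and Tubb5 held 2, while Tuba1a, Tuba1c and Tubb3 held 1 each and Tuba1b, Tuba4a and Tubb2a held 0; 33.8% of 32851 promoters of this length held at least 1. The element TTTGAA, known as CHR and bound by complexes that repress cell cycle genes, was found on either strand in Tubb4b alone of the 8, and in 16% of all promoters. TGATGNAA, a form of the element bound by ATF4, was found in Tubb3 alone of the 8, and in 3.45% of all. TGACNNNGC, a form of the antioxidant response element, was found in Tuba1a and Tuba1c, and in 10.2% of all. A match describes the letters and is not a binding site shown in these cells.

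Of 6 other tubulin genes tested among 10 listed, 4 fell, where 22.8% of all genes tested were called lower. The gamma tubulin Tubg1, which nucleates microtubules, fell (log2 fold change -0.48, SE 0.05). So did the epsilon and delta tubulins of centrioles, Tube1 (-0.76, SE 0.12) and Tubd1 (-0.32, SE 0.09), and the alpha isotype Tuba8 (-0.66, SE 0.17). The beta isotype Tubb4a had 424 ± 34.4 normalized counts in FeM CM libraries and 409.9 ± 47.3 in C CM libraries (limma adjusted p = 0.76), and Tubg2 had a limma adjusted p = 0.427. Tubd1 lost its call without FeM CM replicate 2 (limma adjusted p = 0.0749), C CM replicate 1 (0.0818) or C CM replicate 2 (0.0533). In the gamma-tubulin ring complex, a list that also holds Tubg1 and Tubg2, 5 of 10 members fell and 1 rose. These stand beside the 22.8% of all genes called lower and 19.7% called higher. Those that fell include Tubg1, counted here again, Tubgcp2 (-0.60) and Tubgcp6 (-0.45). The targeting factor Nedd1 rose (0.19, SE 0.05), and its call was lost without FeM CM replicate 2 (limma adjusted p = 0.0564). Of the other 2 that fell, Mzt1 (-0.24) and Tubgcp3 (-0.18) lost their calls without C CM replicate 1 (limma adjusted p = 0.0797 and 0.0612), and Mzt1 also without FeM CM replicate 1 (0.0614) or 3 (0.0617).

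The counts in the folding path of tubulin are to be read against the same 22.8% lower and 19.7% higher over all genes, and those for prefoldin and the cofactors lie near these shares. New tubulin is passed by prefoldin to the chaperonin CCT and then to the cofactors that assemble the dimer. Of 8 CCT subunits, 4 fell and 0 rose, with log2 fold changes of -0.26 for Cct6a and Tcp1, -0.23 for Cct8 and -0.20 for Cct5. Of 6 prefoldin subunits only Pfdn2 fell (-0.21, SE 0.05). Of 8 tubulin cofactors 0 fell and 2 rose, Tbcel (0.72, SE 0.19) and Tbce (0.23, SE 0.07). The call of Tbcel was lost without FeM CM replicate 1, 2 or 3 (limma adjusted p = 0.0924, 0.0821 and 0.0983), and that of Tbce without FeM CM replicate 3 (0.0673), C CM replicate 2 (0.0658) or C CM replicate 3 (0.0667). Of the autoregulation factors, Ttc5 had 2255 ± 63.4 normalized counts in FeM CM libraries and 2151 ± 115 in C CM libraries (limma adjusted p = 0.357). Cnot1, the scaffold of the CCR4-NOT deadenylase, which acts on many mRNAs, fell (-0.53, SE 0.04), and Scaper, which links Ttc5 to it, rose (0.21, SE 0.07). The call of Scaper was lost without FeM CM replicate 2 (limma adjusted p = 0.0512) or 3 (0.119) and without C CM replicate 2 (0.114) or 3 (0.105).

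Ttl, the ligase that returns the final tyrosine to alpha tails, fell by 0.22 on the log2 scale (SE 0.06; limma adjusted p = 0.0197), a call lost without FeM CM replicate 2 (0.0549) or C CM replicate 1 (0.0579) or 2 (0.0621). Of 10 tested genes of glutamylation and glycylation, which add side chains to tails, Tpgs2 (-0.67), Agbl5 (-0.36) and Ttll4 (-0.63) fell and Ttll1 (0.70) and Agbl3 (0.82) rose, which is near the shares over all genes (22.8% lower and 19.7% higher). Ttll4 lost its call without FeM CM replicate 1 (limma adjusted p = 0.0748) or C CM replicate 1, 2 or 3 (0.112, 0.129 and 0.114). Agbl3 lost its call without FeM CM replicate 2 (0.0533) or 3 (0.0548), or C CM replicate 1 (0.0521). All 3 genes of alpha-tubulin acetylation passed, where 42.5% of all genes tested were called in either direction. The acetyltransferase gene Atat1 rose (0.45, SE 0.11), as did the deacetylase gene Sirt2 (0.50, SE 0.07), while the deacetylase gene Hdac6 fell (-0.35, SE 0.06).

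Of 13 tested associated and plus-end proteins 5 rose and 4 fell, where 19.7% of all genes were called higher and 22.8% lower. The rises were led by Map1b, from a family of neuronal microtubule stabilizers, with 923 ± 27.6 normalized counts in FeM CM libraries and 321 ± 51.6 in C CM libraries (log2 fold change 1.53, SE 0.12). Its relative Map1a rose (1.39, SE 0.14), as did the linker Clip2 (0.43, SE 0.04) and the plus-end protein Mapre3 (1.16, SE 0.25), while Mapre1, a widely expressed plus-end protein, fell (-0.24, SE 0.04). Map4 rose as well (0.32, SE 0.09), a call lost without FeM CM replicate 1 (limma adjusted p = 0.0926) or 2 (0.0644) or C CM replicate 3 (0.0753). The other 3 that fell were Clasp2 (-0.29), Map1s (-0.34) and Clasp1 (-0.13), and Clasp1 lost its call without FeM CM replicate 1 (limma adjusted p = 0.0892) or 2 (0.115) or C CM replicate 2 (0.136) or 3 (0.112).

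All 15 spindle microtubule regulators fell, with a median of -1.41 on the log2 scale, against -0.66 for the 10 isotypes, where 22.8% of genes tested were called lower. The crosslinking kinesin gene Kif23 had 2581 ± 134 normalized counts in FeM CM libraries and 9038 ± 87.8 in C CM libraries, and Nusap1 (-1.65), Tacc3 (-1.40) and Tpx2 (-1.27) fell with it. Among depolymerizing and severing proteins the depolymerizing kinesins Kif2c (-1.77) and Kif18a (-1.49), the dimer-binding Stmn1 (-1.19) and Fignl1 (-1.81) were among those that fell, and Katnal1 (0.36) rose. Fignl1 lost its call without FeM CM replicate 1 (limma adjusted p = 0.05003) or without C CM replicate 1, 2 or 3 (0.0637, 0.0679 and 0.063). The part of these genes' fall in that of the tubulins was not tested.

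**Figure D4:**
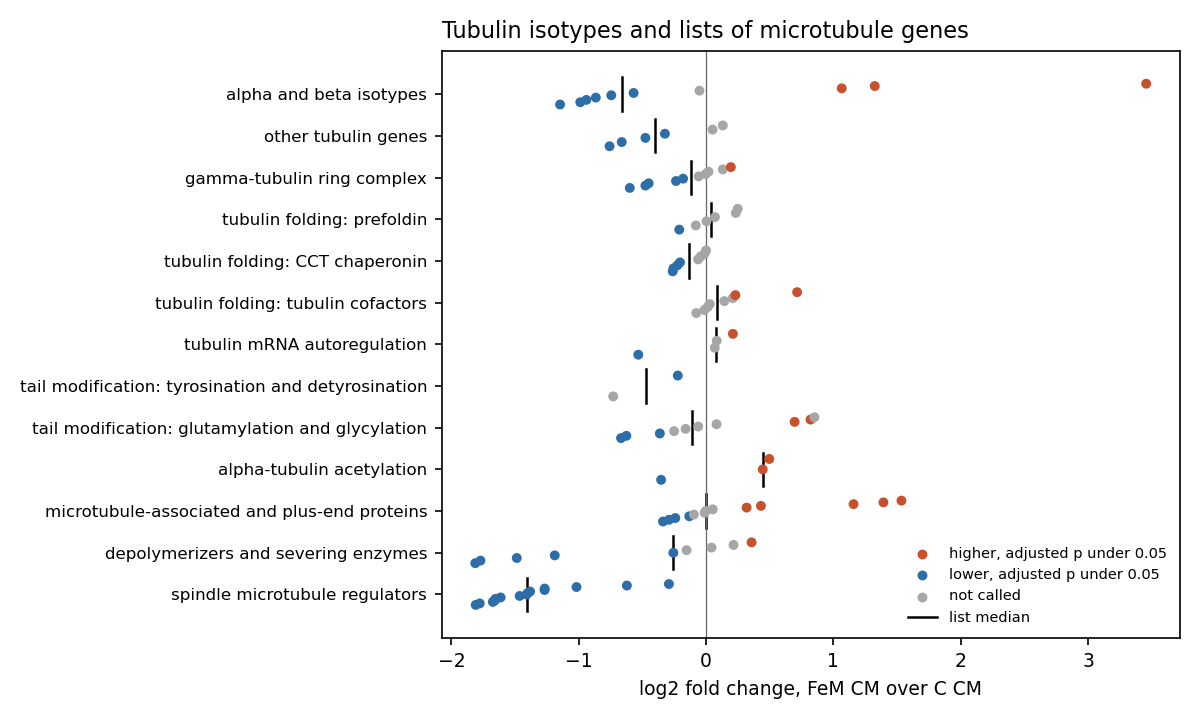
log2 fold change of FeM CM over C CM for the isotypes and 12 lists of microtubule genes, with each tested gene a point coloured by its call and each list median a black bar. The isotypes spread from -1.15 to 3.46 on both sides of 0, and the 15 spindle regulators all lie below 0 with a median of -1.41.

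Several risen isotypes are known from neurons, so markers of other cells were read beside them. Calls in these lists are to be read against 19.7% of all genes tested called higher and 22.8% called lower. Of 14 neuron markers, 8 were matched to none of the 26096 genes of the deposited table. Nefl and Elavl4 had 0 reads in FeM CM libraries and 3 and 5 reads over the C CM libraries, and Map2 and Mapt had 21 and 23 reads over all 6. Syn1, a synaptic vesicle gene, rose to 1233 ± 59.6 normalized counts in FeM CM libraries, against 730.0 ± 42.4 in C CM libraries, and Syp did not pass (limma adjusted p = 0.136). The summed level of the list lay at 1302 to 1449 in FeM CM libraries and 782 to 886 in C CM libraries, and Syn1 made up most of it in both groups. Fibroblast and mural markers summed to 156 to 237 in FeM CM libraries and 68.5 to 89.1 in C CM libraries. Dcn (2.08, SE 0.43) and Acta2 (0.99, SE 0.19) rose, 2 of 3 tested, and Pdgfrb did not pass (limma adjusted p = 0.918). Below the filter, Lum had 36 reads over the FeM CM libraries and 3 over the C CM libraries. In the same order Col1a1 had 6 and 4 reads and Col3a1 had 4 and 2, while Col1a2 had 1 read over all 6 libraries. Dcn rests on 113 reads over the FeM CM libraries and 28 over the C CM libraries. It could not have passed the filter on its C CM values alone, so the filter favoured its call. Astrocyte markers, with Gja1 and Aldoc higher and Aldh1l1 lower of 4 tested, summed to 4182 to 4367 in FeM CM libraries and 3362 to 3652 in C CM libraries. Oligodendrocyte lineage markers, with Mag higher and Mbp, Cldn11 and Cnp lower of 6 tested, summed to 6155 to 6379 in FeM CM libraries and 8837 to 9402 in C CM libraries. The calls of Cnp were lost without any 1 library (limma adjusted p from 0.0554 to 0.134), and those of Aldh1l1 without FeM CM replicate 2 (0.0685) or 3 (0.0893) or C CM replicate 1 (0.108) or 2 (0.0751). Microglia and macrophage markers, with Adgre1, Fcer1g and Tyrobp higher and Trem2, Csf1r and Cd68 among those lower, summed to 148607 to 150388 in FeM CM libraries and 168842 to 173451 in C CM libraries. The part of any other cell type in the tubulin changes was not tested.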

How the data were processed

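Total RNA from 6 microglia samples was made into PCR-amplified mRNA libraries and sequenced, per the labels' protocols. The submitters' processing notes name R 3.4.3, DESeq2 1.18.1, HISAT2 2.1.0 and fastp 0.17.1. Genome build, annotation, counter and use of strand remain not given in the sources used here. Deposited by the authors were log2 values of 26096 genes, which behave as log2(count divided by a size factor, plus 1): undone, 100% came out as whole reads (tolerance 0.01) after scaling by each library's step size. A shorter deposited table holds FPKM for 1699 genes, 4 of them members. These FPKM were 0.879 to 0.89 of reads per kilobase of exon union, scaled to library size, for Tubb2a, Tubb2b and Tubb5, so exon unions of GENCODE M21 (26051 of the 26096 gene IDs matched) served as lengths. For Tubb3 the ratios were 0.879, 0.879 and 0.885 in FeM CM libraries. They were lower in C CM libraries, where its reads were few (0.651, 0.78 and 0.812). The authors' own log2 fold changes and deposited p-values were not used for any call.

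The main test was limma 3.58.1 (trend, robust, two-sided) under R 4.3.3, with medium as its single term, fitted to the log2 values of 15597 genes that reached 10 normalized counts in 3 or more libraries. P-values were adjusted by Benjamini-Hochberg over all of these, with a threshold of 0.05, and SE is limma's moderated standard error. All 10 members were named, and of each of the 17 lists up to 4 called genes with the smallest p-values and any gene where 5 or fewer were counted. Pseudogenes, Gm49450 and Stk16 were named for sharing sequence. Some listed genes are not reported here. The members and lists were chosen with earlier results of these data known. Replicate pairs differed by more than sampling noise (chi-square per degree of freedom 16.6 to 23.3). Alternatives were another pseudocount, 2 filters, quantile normalization, limma-voom on whole reads, no trend or robust fit, a replicate block and leaving out each library; another length was added after the data were seen. SDs carry the spread between samples, and of the 10 members only Tubb3 rests on few reads.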

Additional observations from a re-analysis of the deposited data

How the results depend on the processing

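Over the 13 alternative settings of the test, the same 3 members stayed called higher and the same 6 lower, and Tuba1a was not called (limma adjusted p from 0.0982 to 0.449). Tubb5 ranged from -1.21 to -1.11 on the log2 scale, Tuba1b from -1.02 to -0.92, Tubb2a from 1.02 to 1.12, Tubb2b from 1.21 to 1.43 and Tubb3 from 2.26 to 3.78. The highest adjusted p of any called member was 0.00189, for Tubb2b. With no length correction the gain in the share of Tuba1a was 5.52 percentage points and that of Tubb2a, Tubb2b and Tubb3 together 2.03; with the principal transcript as length they were 5.8 and 2.47, against 6.32 and 3.15 as reported. Quantile normalization moved the median of all genes by 0.00703 (log2) and voom by 0.0144. Samples with the same number did not deviate together (r of 0.00859, -0.0196 and -0.0393 for replicates 1, 2 and 3), though so few values cannot exclude a link between them. With the replicate block 3 members were called higher and 6 lower, and 2914 and 3312 genes in all, against 3077 and 3552. The count-based fit (limma-voom with TMM) on the recovered whole reads called 3255 genes higher and 3439 lower. Leaving out single libraries gave 2668 to 2848 genes called higher and 3030 to 3371 called lower. In the lists of other genes, calls lost without 1 library are given beside each gene, and these were lost under other settings (limma adjusted p). The replicate block ended those of Clasp1 (0.0719), Cnp (0.0822), Mzt1 (0.0509), Scaper (0.0713), Tbce (0.0514), Ttl (0.0505) and Ttll4 (0.0667). Quantile normalization ended those of Clasp1 (0.171), Cnp (0.2), Mzt1 (0.0751), Tubgcp3 (0.0733) and Ttll4 (0.05001). Without a filter, Clasp1 (0.0705), Cnp (0.0804), Scaper (0.0598) and Ttll4 (0.0665) lost theirs, as did Cnp with a minimum of 1 (0.0523). Without trend or robust fitting Clasp1 (0.0834), Cnp (0.0643), Map4 (0.0569) and Scaper (0.0581) lost theirs, and with voom Clasp1 (0.0552) and Cnp (0.0701); the cause was not tested. Depth limits Tubb3 in C CM libraries, with 3 to 8 reads each.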

Other observations

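Below the filter on low values, Vash2, a carboxypeptidase gene whose product removes the final tyrosine of alpha tubulin, had 6 reads over the FeM CM libraries and 63 over the C CM libraries, and its relative Vash1 had 0 over the FeM CM libraries and 8 over the C CM libraries. Vash2 had 2.13 ± 3.68 normalized counts in FeM CM libraries and 18.9 ± 11.7 in C CM libraries (SD, n = 3 each). Both were named after their values were seen. Svbp, the partner of both enzymes, had 371 ± 215 normalized counts in FeM CM libraries and 518 ± 35.2 in C CM libraries (limma adjusted p = 0.422). Within libraries, the log2 ratio of Tubb2a to Tubb5 was -5.26, -5.11 and -5.25 in FeM CM libraries and -7.47, -7.33 and -7.46 in C CM libraries, and that of Tuba1a to Tuba1b was -1.66, -1.63 and -1.66 in FeM CM libraries and -2.51, -2.52 and -2.58 in C CM libraries.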
